A study of Bos taurus with 12 samples.

Results

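The genes described here encode the adhesion molecules with which leukocytes leave the blood: the endothelial selectins SELE and SELP, the selectin ligand SELPLG, the endothelial adhesion receptors ICAM1 and VCAM1, and the leukocyte integrin chains ITGB2, ITGAM, ITGAL and ITGA4. They were chosen by symbol, and all 9 of the 9 genes were matched by RefSeq accession, among 12639 genes that could be named on the array. Mammary gland (MG) biopsies of 12 multiparous Holstein cows in early lactation (24 ± 3 days in milk) were hybridized to one-color bovine arrays, with 1 cow per array. The 6 control cows (CONT) stayed on a lactation diet offered ad libitum, and the 6 restricted cows (REST) received for 4 days the same kind of ration diluted with barley straw to 48% of the dry matter. Every cow of both groups received 50 µg of lipopolysaccharide (LPS) in a single healthy rear gland on day 3 and was biopsied 24 h later, so that no array represents an unchallenged gland and the comparison concerns diet during inflammation only. A biopsy mixes epithelium, vessels and leukocytes, and fewer cells of a type cannot be told apart from less RNA per cell.

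Leukocytes are first slowed on the vessel wall by selectins, which bind sugars carried by PSGL-1, the product of SELPLG. Chemokine signals then switch leukocyte integrins to a high-affinity form, and these bind ICAM1 and VCAM1, which hold the cell before it crosses the endothelium. In the udder, endotoxin triggers a massive passage of neutrophils from the blood into tissue and milk by this route. The β2 chain ITGB2 pairs with ITGAL to form LFA-1 and with ITGAM to form Mac-1, and its loss causes leukocyte adhesion deficiency in Holstein cattle, while ITGA4 pairs with a β1 or β7 chain to bind VCAM1. In the RefSeq gene order of the bovine genome, ITGAL and ITGAM lie on the same chromosome.

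Values are log2 signals minus their array's 75th percentile, so that a negative value lies below that level, and values of different probes are not set against each other. The arrays had 57.57 to 78.13% of their 43653 probes well above background, as called by the scanner software. Cows are numbered here within each diet in the order of their records, not by the farm's numbers. CONT cow 4 and REST cow 1 had the brightest negative controls (median intensity 17.3 and 15.8, against 3.44 to 9.88 on the other arrays). CONT cow 6 stood apart in the mean of 9 endothelial markers, at -1.09, when the other CONT cows had 0.55 to 0.82 and the REST cows 0.34 to 1.1.

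REST and CONT did not separate in any of the 9 adhesion genes. At an adjusted p of 0.05 (limma), the Westfall-Young adjustment called none of them and 0% of all probes, and the Benjamini-Hochberg adjustment likewise called none of them and 0% of all probes. None of the 9 genes, and none of their 23 probes, had an unadjusted p under 0.05 (limma), against 2.62% of all probes. The groups overlapped in every one of the 23 probes, and 0.128% of all probes did not overlap. With the brightest probe standing for its gene, 4 genes (SELE, SELP, SELPLG and ITGA4) had a higher mean in REST and 5 (ICAM1, VCAM1, ITGB2, ITGAM and ITGAL) a lower one, when 46.1% of all probes were higher in REST. The median log2 FC, REST minus CONT, was -0.02 for the 9 genes and -0.023 for all probes. The adjusted p was 1 for each of the 9 genes with both adjustments (limma), and unadjusted p ranged from 0.372 to 0.968 (limma). The absence of a call does not show that the diets gave equal levels, because the 95% intervals of the 9 fold changes reached from 0.372 to 3.36 at their extremes. Which genes were higher depended on the model and on single cows: 8 of the 9 had a higher value in REST with slide as a block and 2 did with normexp background correction of the median spot signals. With single cows left out the count was 3 (without CONT cow 3 or CONT cow 6) to 8 (without CONT cow 5 or REST cow 5).

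**Figure D1:**
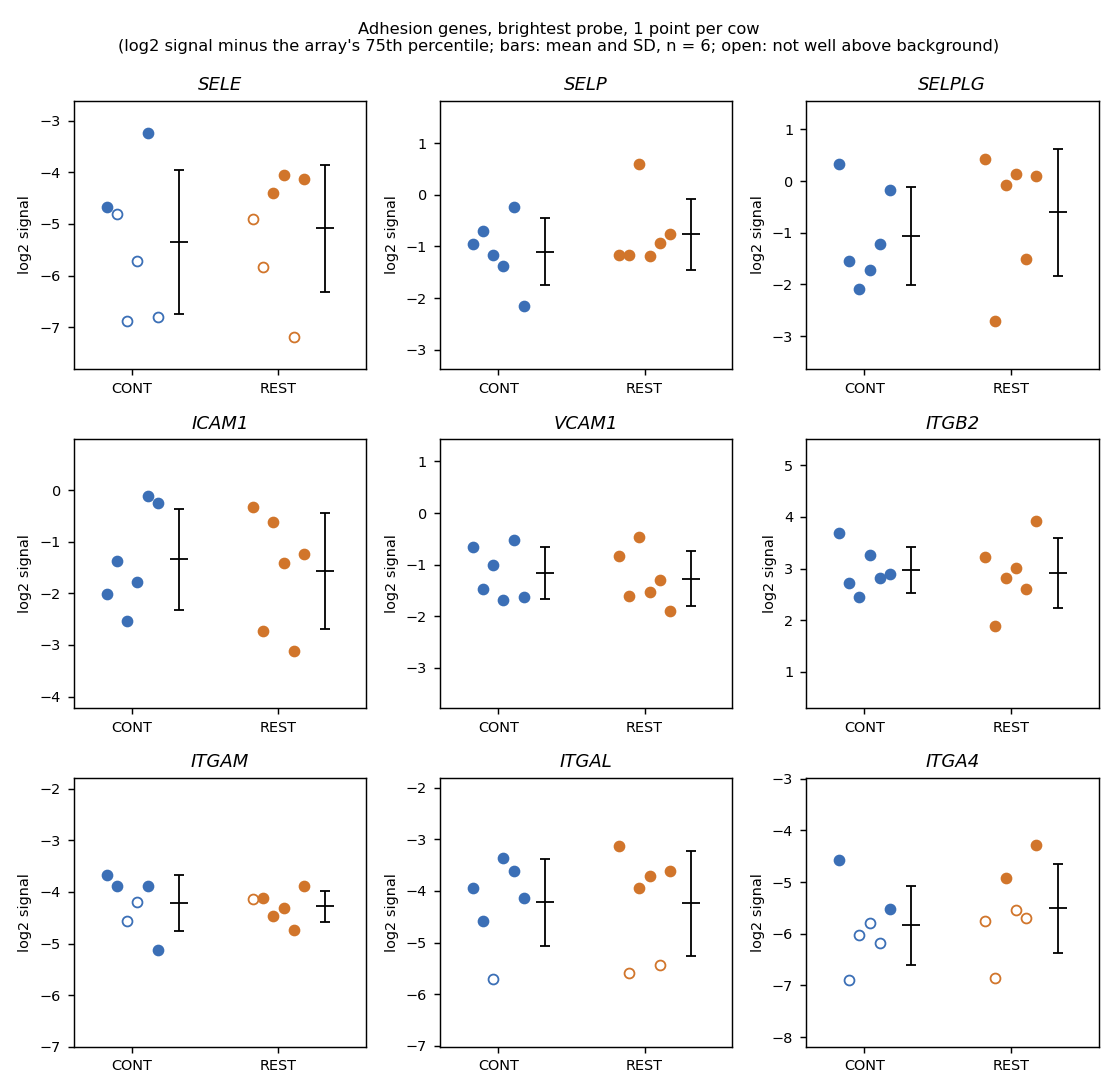
Log2 signal of the brightest probe of each adhesion gene (vertical axis, relative to the array's 75th percentile) in the 6 CONT and 6 REST cows, with 1 point per cow. Bars give the mean and SD, open points were not well above background, and each panel spans the same number of log2 units; the groups overlap in all 9 panels.

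SELP, P-selectin, which endothelial cells and platelets store and bring to the surface within minutes of a stimulus, was well above background on all 12 arrays with its only probe (NM_174183). Its log2 signal was -2.15 at the lowest, -1.05 at the median and -0.24 at the highest in CONT, and -1.18, -1.04 and 0.60 in REST. REST cow 3 lay far above the other REST cows (-1.18 to -0.76), and the medians of both diets were nearly the same. REST exceeded CONT by a mean log2 FC of 0.33 (SE, the standard error, 0.36, with a 95% interval of -0.45 to 1.12, exact permutation test p = 0.429). It was 0.062 without REST cow 3 and 0.12 without CONT cow 6, the cow with the low endothelial markers.

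SELE (NM_174181, 1 probe) encodes E-selectin, which endothelium makes only after activation by LPS or cytokines. It exceeded background clearly on 2 arrays of CONT and 3 of REST, and its other values lie at or near background. Log2 signals were -6.87, -5.26 and -3.23 (lowest, median, highest) in CONT and -7.19, -4.66 and -4.06 in REST. CONT cow 5 was the highest of the 12 cows and REST cow 5 the lowest. The log2 FC of 0.26 (SE 0.69) had a wide interval, from -1.22 to 1.75 (exact permutation test, p = 0.729), and normexp turned it to -0.053.

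SELPLG, whose product PSGL-1 is the main selectin ligand of leukocytes, had a mean difference between diets that was smaller than the spread between cows. The brightest of its 3 probes (NM_001037628) was well above background on all 12 arrays, with log2 signals of -2.09, -1.38 and 0.34 (lowest, median, highest) in CONT and -2.71, 0.0098 and 0.42 in REST. In REST, 4 cows lay between -0.08 and 0.42 and the other 2 at -1.50 and -2.71, so that the lowest of all 12 cows was also a REST cow. This left a log2 FC of 0.46 (SE 0.58, 95% interval -0.79 to 1.71, exact permutation test p = 0.47), which was 0.13 without CONT cow 4 and REST cow 1, the arrays with the brightest negative controls, and 0.88 without REST cow 2. Both other SELPLG probes, which represent a second transcript (NM_001271160), were higher in REST too, one by 0.31 (SE 0.47) and the other by 0.59 log2 units (SE 0.57). They correlated with the brightest probe across cows (r = 0.875 and 0.896, n = 12 arrays, description only).

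ICAM1 and VCAM1 are the immunoglobulin family receptors that leukocyte integrins bind on endothelium, and ICAM1 is also made by inflamed epithelium. The brightest ICAM1 probe (NM_174348) had log2 signals of -2.53, -1.58 and -0.12 (lowest, median, highest) in CONT and -3.12, -1.32 and -0.33 in REST. The 12 cows thus spanned 3.01 log2 units, an 8.04-fold range, without a gap between diets: CONT cows 5 and 6 and REST cows 1 and 3 were the 4 highest, and REST cows 2 and 5 were the 2 lowest. The log2 FC was -0.23 (SE 0.55, 95% interval -1.43 to 0.97, exact permutation test p = 0.706), which turned to 0.29 with slide as a block and ranged from -0.48 to 0.081 with single cows left out. The second ICAM1 probe followed the first (r = 0.966, n = 12 arrays, description only), with a REST minus CONT difference of -0.29 log2 units (SE 0.54). The dimmest gave 0.44 (SE 0.49) and was well above background in 2 cows of CONT and 3 of REST.

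VCAM1 was well above background on all 12 arrays with both of its probes. The log2 signals of its brightest probe (NM_174484) were -1.69, -1.24 and -0.52 (lowest, median, highest) in CONT and -1.89, -1.42 and -0.46 in REST. The log2 FC was -0.11 (SE 0.29, 95% interval -0.74 to 0.51), which corresponds to a fold change between 0.60 and 1.43 (exact permutation test, p = 0.716), and with single cows left out the log2 FC ranged from -0.27 to 0.017. Its other probe, likewise well above background on all arrays, gave -0.31 (SE 0.39) and had r = 0.575 with the brightest (n = 12 arrays, description only).

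ITGB2, the β2 chain shared by LFA-1 and Mac-1, was well above background on all 12 arrays with 5 of its 6 probes (NM_175781). The brightest probe had log2 signals of 2.44, 2.85 and 3.68 (lowest, median, highest) in CONT and 1.88, 2.92 and 3.92 in REST. The lowest and the highest cow were both in REST (cows 2 and 6), and the medians differed by less than the spread in either group. The log2 FC was -0.062 (SE 0.31, 95% interval -0.74 to 0.62), a fold change of 0.958 between bounds of 0.598 and 1.53 (exact permutation test, p = 0.857), and with single cows left out the log2 FC ranged from -0.26 to 0.14. Of the other ITGB2 probes, 4 had log2 FC of -0.18 to -0.029 and the remaining one had 0.26 (SE 0.43). One of these 4 (ITGB2 probe 3 in the plot of all intervals) rests on 5 CONT cows, since an outlier-marked spot was left out. The probes did not all follow each other across cows: in decreasing brightness the other 5 had r of 0.975, 0.94, -0.244, 0.763 and 0.376 with the brightest (n = 11 or 12 arrays, description only), and the probe with the negative r was well above background on all 12 arrays.

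None of the 3 α chains was well above background on all 12 arrays. ITGAM, the α chain of Mac-1 on neutrophils and macrophages, was so with its brightest probe (NM_001039957) on 4 CONT and 5 REST arrays. Its log2 signals were -5.13, -4.04 and -3.67 (lowest, median, highest) in CONT and -4.74, -4.23 and -3.89 in REST, all REST cows lying inside the CONT range. The log2 FC was -0.056 (SE 0.25, 95% interval -0.60 to 0.49) (exact permutation test, p = 0.833), and with single cows left out the log2 FC ranged from -0.24 to 0.055. Another ITGAM probe gave 0.74 (SE 0.69), with 1 CONT and 3 REST cows well above background. The remaining probe was well above background on no array, and no fold change is given for it.

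ITGAL (NM_198221) encodes the α chain of LFA-1 on most leukocytes. Its brightest probe reached this level on 5 arrays of CONT and 4 of REST, and had log2 signals of -5.70, -4.04 and -3.36 (lowest, median, highest) in CONT and -5.59, -3.84 and -3.14 in REST. The means were -4.22 and -4.24, a log2 FC of -0.02 (SE 0.49, 95% interval -1.09 to 1.05, exact permutation test p = 0.963), and the other probe differed by 0.15 (SE 0.47). The log2 FC turned to 0.38 with slide as a block and ranged from -0.32 to 0.25 with single cows left out. Across cows, both ITGAL probes had r = 0.931 (n = 12 arrays, description only).

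ITGA4, the α4 chain of lymphocytes, monocytes and eosinophils, was well above background on 2 arrays of each diet (NM_174748, brightest probe). Log2 signals were -6.90, -5.92 and -4.58 (lowest, median, highest) in CONT and -6.85, -5.63 and -4.28 in REST. The diets overlapped over most of this range, at a log2 FC of 0.33 (SE 0.44, 95% interval -0.62 to 1.27, exact permutation test p = 0.487). With 8 of the 12 values not well above background, this direction is not settled, and normexp turned it to -0.025. The other ITGA4 probe was so on a single CONT array and none of REST, and no fold change is given for it.

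**Figure D2:**
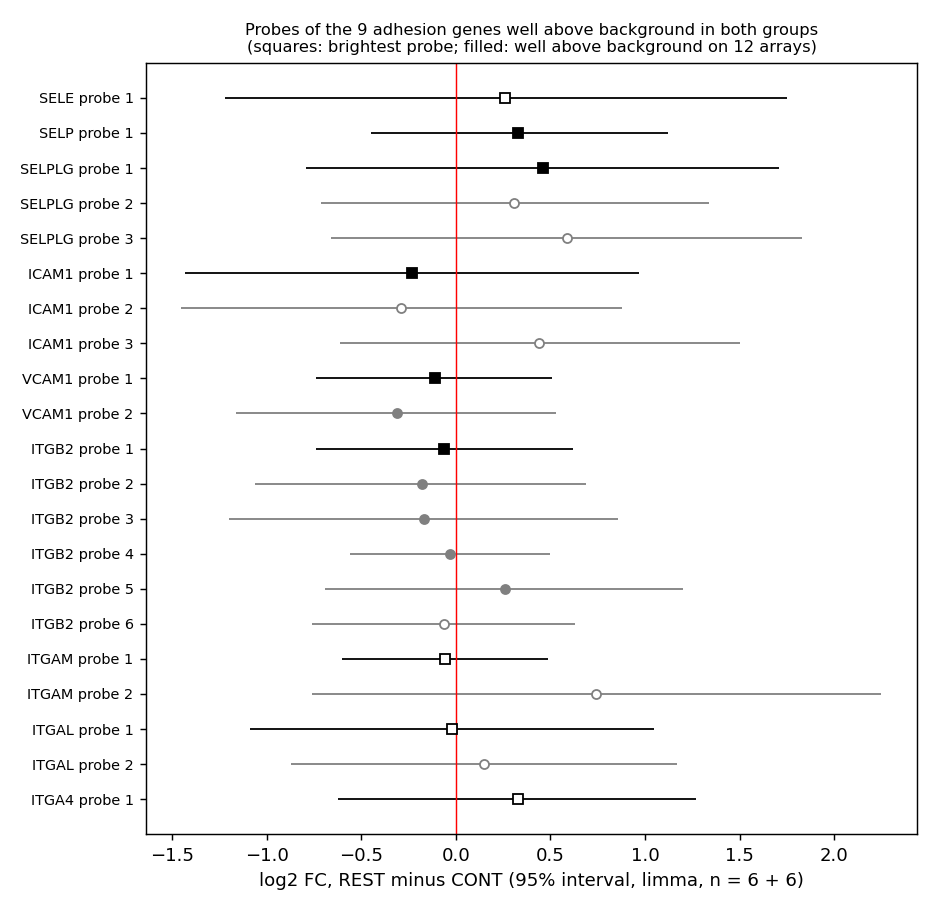
Log2 FC (REST minus CONT, horizontal axis) of the probes of the 9 adhesion genes that were well above background on at least 1 array of each diet, with 95% intervals from limma; the 2 probes given without a fold change are left out. Squares mark the brightest probe of a gene and filled symbols the 10 probes well above background on all 12 arrays, and each interval includes 0.

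The 12 arrays came from 3 slides of 4 arrays, and none of the 9 genes kept 1 direction within all 3 slides. On slide 2, which held 1 CONT and 3 REST cows, each of the 9 genes was lower in REST, by log2 differences of -1.70 (SELPLG) to -0.14 (SELP). On slide 3, with 2 cows of each diet, each of the 9 was higher in REST, from 0.14 (VCAM1) to 1.57 (SELP) among the 5 genes well above background on all arrays. SELE differed by 2.57 there, but neither CONT cow of that slide was well above background for it. On slide 1, with 3 CONT and 1 REST cows, the difference ranged from -0.38 (SELP) to 1.91 (SELPLG). These differences rest on 1 to 3 cows per diet and have no test. Their part in the pooled values was not tested beyond the fit with slide as a block.

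Cows of the same diet differed widely in these genes. The residual SD within diets was 1.1 for SELPLG and 1.05 for ICAM1, at the 96.8 and 96.3 percentile of the 9082 named genes well above background on all 12 arrays. It was 0.669 for SELP (85.8 percentile), 0.571 for ITGB2 (79.4) and 0.519 for VCAM1 (74.9). The pairs of these 5 genes were compared across the 12 cows, 10 pairs in all, with permutation tests and Benjamini-Hochberg adjustment over the pairs. The leukocyte genes SELPLG and ITGB2 had the highest correlation (r = 0.748, permutation p = 0.00421, adjusted p = 0.0421; rho = 0.72, permutation p = 0.0108, adjusted p = 0.108). Without the 2 cows farthest from the median of SELPLG, r was 0.521 and no longer passed (n = 10, permutation p = 0.126, adjusted p = 0.802). That step also narrows the range of SELPLG and leaves fewer cows, so it cannot tell whether the relation depends on those cows. Centred on diet, r was 0.782 (permutation test, adjusted p = 0.0232) and, centred on diet and slide, 0.781 (permutation test, adjusted p = 0.0277). Each slide holds 4 cows, too few for a value within a slide. The endothelial genes SELP and VCAM1 had r = 0.607 (permutation p = 0.0272, adjusted p = 0.136; rho = 0.587, permutation p = 0.0483), which was 0.39 without the 2 outermost cows and 0.674 when centred on diet and slide, where it passed (adjusted p = 0.0495). SELPLG and ICAM1 had r = 0.586 (permutation p = 0.0486, adjusted p = 0.162; rho = 0.462, permutation p = 0.133), which was 0.352 without the 2 outermost cows and 0.735 when centred on diet and slide, where it passed (adjusted p = 0.0365). The other 7 pairs had unadjusted permutation p-values of 0.269 or more, among them VCAM1 with ITGB2, whose r was -0.033.

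After these values were seen, the 5 genes were also set beside the mean log2 signal of 6 pan-leukocyte markers (PTPRC, LCP1, CORO1A, CYBB, NCKAP1L and LAPTM5) and of 9 endothelial markers, 10 relations in all. Both leukocyte genes followed the pan-leukocyte mean, SELPLG with r = 0.899 (permutation p = 0.00014, adjusted p = 0.0007; rho = 0.853, permutation p = 0.00076) and ITGB2 with r = 0.898 (permutation p = 7e-05, adjusted p = 0.0007; rho = 0.888, permutation p = 0.00024). Without the 2 outermost cows these were 0.851 and 0.795, and centred on diet and slide 0.923 and 0.922. The pan-leukocyte mean itself ran from 0.87 to 2.20 in CONT and from 0.24 to 2.24 in REST, with REST cows 2 and 6 at its ends. SELPLG was lowest in REST cow 2, and ITGB2 was lowest in REST cow 2 and highest in REST cow 6. No other uncentred relation passed an adjusted p of 0.05. SELP had r = 0.58 with the endothelial mean (permutation p = 0.101, adjusted p = 0.203; rho = 0.336, permutation p = 0.287), which was -0.0601 without the 2 outermost cows, and ICAM1 had r = -0.545 (permutation p = 0.0392, adjusted p = 0.131; rho = -0.608, permutation p = 0.0399), which was -0.442 without the 2 outermost cows and -0.663 when centred on diet and slide, where it passed (adjusted p = 0.0421).

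**Figure D3:**
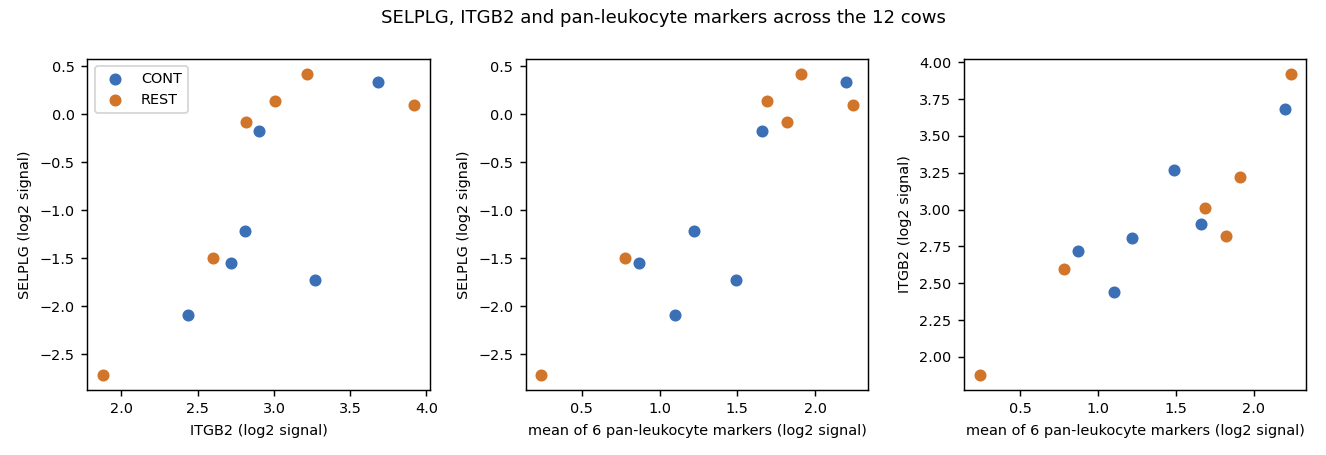
SELPLG and ITGB2 (brightest probes) against each other and against the mean of 6 pan-leukocyte markers, as log2 signals relative to the array's 75th percentile, with 1 point per cow and diets in 2 colors. The points rise together (r = 0.748, 0.899 and 0.898 from left to right), and CONT and REST cows are mixed along each cloud.

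The genes whose pattern over the 12 arrays was most like each member, by Pearson r over the named genes well above background on all arrays, are given as a description. For ITGB2 these were IRF5 (0.963), SLC16A3 (0.945) and CD68 (0.937), and for SELPLG they were SLAMF6 (0.968), TNFAIP8 (0.942) and SNX20 (0.942). ICAM1 was most like PARP12 (0.966), PJA1 (0.957) and RAB7B (0.944). VCAM1 was most like COL18A1 (0.909), NIBAN1 (0.866) and DSTN (0.842), and SELP was most like FAM124B (0.876), LAMB2 (0.863) and CSPG4 (0.863).

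Of 53 further genes of leukocyte adhesion in 5 lists, 45 were matched to probes, 0 passed either adjustment and 0 had an unadjusted p under 0.05 (limma), against 2.62% of all probes. For each list, the lowest and the highest log2 FC among genes well above background on all 12 arrays are named. Selectin ligands other than SELPLG had a median of 0.13 and were higher in REST for 5 of 6 genes, with CD44, a hyaluronan receptor (-0.58, SE 0.68), and GLYCAM1 (0.50, SE 0.45), a mucin that mammary epithelium secretes into milk, at the ends. The enzymes that build selectin ligands had a median of 0.17, with 7 of 10 higher in REST, TPST1, a tyrosine sulfotransferase, lowest (-0.28, SE 0.21) and CHST2, a sugar sulfotransferase, highest (0.48, SE 0.29). Other leukocyte integrin chains had a median of 0.059, with 4 of 7 higher, from ITGAD (-0.42, SE 0.72), a further partner of ITGB2, to ITGA6, a laminin receptor chain (0.24, SE 0.22). Genes of integrin activation had a median of 0.0038, with 5 of 10 higher, from RAP1A, a small GTPase (-0.19, SE 0.13), to RASGRP2, its exchange factor (0.41, SE 0.35). Junctional and transmigration molecules had a median of 0.21, with 9 of 12 higher, from THY1 (-0.37, SE 0.19) to CDH5, the endothelial cadherin (0.55, SE 0.43), which is also among the endothelial markers. Without CONT cow 6 the medians of the 5 lists, in the order given, were 0.1, 0.11, -0.075, -0.0053 and 0.073, so that those of the integrin chains (3 of 7 higher) and of integrin activation changed sign. The same cow moved ITGAD to -0.97, GLYCAM1 to 0.11, CHST2 to 0.26, TPST1 to -0.15, ITGA6 to 0.16 and CDH5 to 0.15 when left out, and THY1 (-0.44) then had an unadjusted p of 0.0481 (limma). The median over all named genes was -0.034, and nothing particular to any list follows from these values.

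Of the 9 endothelial markers, 9 had a higher mean in REST (median 0.37), and their log2 FC ran from EMCN (0.19, SE 0.26) to VWF (0.79, SE 0.30, unadjusted p = 0.0227, adjusted p = 1, limma, Westfall-Young). VWF, the adhesive protein that endothelium stores beside P-selectin, was 1.53 ± 0.72 in CONT (SD, n = 6) and 2.32 ± 0.30 in REST (SD, n = 6). For this gene, 5 of the 6 REST cows lay above every CONT cow, and 7 of 7 probes had a higher mean in REST. Without CONT cow 6, 7 of the 9 markers were higher, the median was 0.14 and the difference for VWF was 0.50 (unadjusted p = 0.0164, limma). That cow was singled out by its low mean of these same markers. Leaving it out had to lower their mean difference, so this is no independent check. These markers stand beside SELP, whose correlation with their mean is given above, and beside SELE, for which their part was not tested.

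Leukocyte markers gave no common direction. The genes in parentheses are the lowest and highest of those well above background on all 12 arrays. The pan-leukocyte markers had a median log2 FC of 0.027 (4 of 6 higher, PTPRC -0.34 and LCP1 0.30). The neutrophil markers had a median of 0.19 (3 of 5 higher, CXCR2 -0.19 and S100A8 0.31, while CXCR1, well above background on 11 arrays, was at -1.03, SE 0.99), and their mean signal spanned -0.0067 to 2.61 in CONT and -2.04 to 2.56 in REST. The monocyte and macrophage markers had a median of 0.074 (3 of 5 higher, CSF1R -0.35 and CD163 0.85). T cell markers had a median of 0.03 (4 of 8 higher, CD3G -0.27 and CD3D 0.60, unadjusted p = 0.04, limma) and B cell markers 0.038 (2 of 4 higher, BLK -0.10 and CD79A 0.13), with MS4A1, well above background on 4 arrays, at 0.72 (unadjusted p = 0.0249, limma). The second CD3D probe was not higher in REST. Of the markers of blood in the biopsy, those well above background on all 12 arrays were ITGA2B of platelets (0.12) and HBA and AHSP of erythrocytes (each 0.13, and -0.17 and -0.066 without CONT cow 6). The whole lists (platelet: 1 of 2 higher, median -0.25, erythrocyte: 2 of 5 higher, median -0.13) rest mostly on dim probes, since PF4 and SLC4A1 were well above background on 3 arrays, HBB on 1 and ALAS2 on 0. Without CONT cow 6 the medians were 0.13 for pan-leukocyte, 0.14 for neutrophil, 0.058 for monocyte and macrophage, 0.067 for T cell, -0.071 for B cell and 0.073 for epithelial markers. They were -0.24 for platelet and -0.29 for erythrocyte markers, with 0 of 5 erythrocyte markers higher in REST. Mammary epithelial markers, which check the tissue, had a mean signal above the 75th percentile on all 12 arrays, 4.36 to 5.17 in CONT and 4.61 to 5.25 in REST (5 of 7 higher, median 0.19, KRT18 -0.49 and KRT19 0.48). Leaving out CONT cow 6 moved CXCR2 to -0.45, S100A8 to 0.45, CD3G to -0.16, CD79A to 0.0066 and KRT18 to -0.21. No marker of these lists passed an adjusted p of 0.05 (limma, both adjustments).

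**Figure D4:**
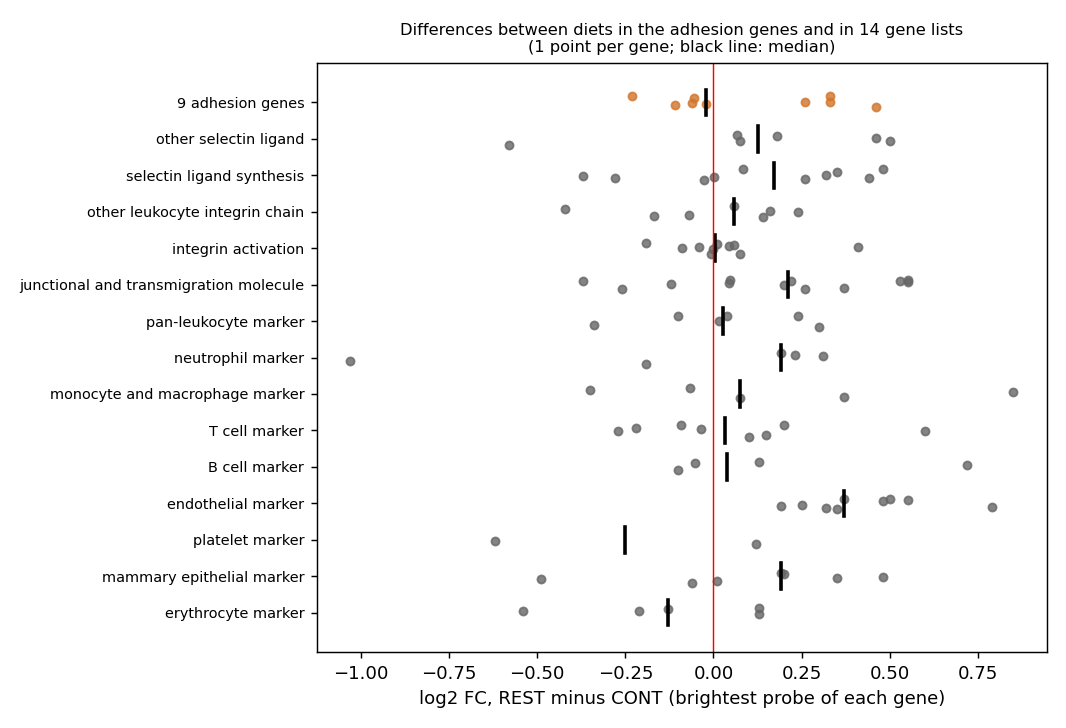
Log2 FC (REST minus CONT, horizontal axis) of the 9 adhesion genes and of the matched genes of 14 lists, with 1 point per gene (brightest probe) and the median as a black line. The adhesion genes lie on both sides of 0 (median -0.02), and the 9 endothelial markers lie at 0.19 to 0.79.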

How the data were processed

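Total RNA from MG biopsies of 12 cows (6 CONT, 6 REST, grouped by the diet label) was labeled with Cy3 and hybridized to bovine arrays. The deposited spot intensities are those the authors obtained with Agilent Feature Extraction 11.0.1.1, background-corrected and not normalized between arrays. The deposited matrix holds the same intensities (largest difference 0). Non-control spots (43803, for 43653 probes) were used, outlier-marked spots were left out, the 75th percentile of each array was subtracted on the log2 scale, spots of a probe were averaged, and no dim probe was removed. The number of arrays limits precision, and dim probes also depend on the handling of background. Probes were named through RefSeq accessions (26832 probes); the array and the table belong to different assemblies, so positions are not given.

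REST was compared with CONT over all probes with limma 3.58.1 (R 4.3.3), two-sided, with Westfall-Young step-down adjustment as in the study's methods (100 of 462 distinct splits, smallest adjusted p 0.01) or Benjamini-Hochberg, both at 0.05. The study used GeneSpring software and reported differentially expressed genes between the diets at this level. No probe was called here, and the reason for this difference was not tested. Exact permutation tests of single probes can reach 0.00216. Correlations used 100000 permutations. Genes named were the 9 members with all probes, list members with an unadjusted p under 0.05, the highest and lowest of each list among probes well above background on all arrays, and the 3 genes most like each member, and the markers in a mean were named besides, as were CXCR1, PF4, SLC4A1, HBB and ALAS2 after their values were seen. Members and lists were chosen with earlier results of these data known, and 1 gene of a list is not reported here and was left out of its list's values. Alternatives were another adjustment, quantile normalization, normexp (offset 50, on median signals), the deposited matrix, a filter on dim probes, outlier spots, slide as a block, the mean over probes and leaving out cows. The fit was tested on simulated data. Figures used matplotlib 3.10.9.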

Additional observations from a re-analysis of the deposited data

Results flagged for a closer look

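Among 46 groups of 6 or 5 cows (23 probes, 2 diets), 4 held a cow whose distance from the rest exceeded the 95% limit of Dixon's test, which by chance happens in about 1 in 20 groups. For SELP, REST cow 3 was at 0.60 and the other REST cows at -1.18 to -0.76. For the second SELPLG probe, CONT cow 1 was at -1.74 and the others at -4.01 to -3.24. For the dimmest ITGB2 probe, REST cow 5 was at -5.97 and the others at -4.71 to -4.31. For the dimmest ITGAM probe, which was well above background on no array, CONT cow 4 was at -5.78 and the others at -7.19 to -6.72; this array also had the brightest negative controls. Cows were left out in turn for the brightest probe of each gene only, which among these covers SELP. For the other flagged probes the part of the cow was not tested.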

How the results depend on the processing

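No setting tried, among those named under the processing and each cow left out in turn, called a member gene at an adjusted p of 0.05 or gave one an unadjusted p under 0.05 (limma). The directions were not stable. With slide as a block, the log2 FC changed sign to 0.29 for ICAM1, 0.01 for ITGB2, 0.0077 for ITGAM and 0.38 for ITGAL, and 8 of the 9 genes were higher in REST in place of 4. With normexp, SELE changed to -0.053 and ITGA4 to -0.025, and 2 genes were higher in REST. Averaging a gene's probes, ITGB2 changed to 0.029, ITGAM to 0.26 and ITGAL to 0.065, and 7 genes were higher. The filter on dim probes left 5 of the 9 genes, with 2 higher in REST, and each of these 5 kept its direction. Benjamini-Hochberg acts on p-values only and the deposited matrix holds the same intensities, so neither could change a direction. With outlier spots kept, the log2 FC of the 9 genes were the same as before. Quantile normalization changed no direction. Leaving out the 2 arrays with the brightest negative controls, added after the values were seen, changed none either. It moved ICAM1 to -0.56, VCAM1 to -0.30 and SELPLG to 0.13.

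With single cows left out, the count of genes higher in REST was 3 to 8 (7 without CONT cow 1 or REST cow 2, 8 without CONT cow 5 or REST cow 5). The log2 FC ranged from -0.042 to 0.69 for SELE, 0.062 to 0.51 for SELP, 0.26 to 0.88 for SELPLG, -0.48 to 0.081 for ICAM1, -0.27 to 0.017 for VCAM1, -0.26 to 0.14 for ITGB2, -0.24 to 0.055 for ITGAM, -0.32 to 0.25 for ITGAL and 0.079 to 0.59 for ITGA4.

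Centred on diet and slide, r changed to -0.00406 for SELP and SELPLG and to -0.0298 for SELP and ITGB2, and it passed an adjusted p of 0.05 for SELP and VCAM1 (0.674) and for SELPLG and ICAM1 (0.735), and also for ICAM1 and the endothelial mean (-0.663). Without the 2 outermost cows, SELPLG and ITGB2 no longer passed (0.521), and r changed to -0.0594 for ICAM1 and ITGB2, 0.0561 for VCAM1 and ITGB2, -0.00411 for SELP and the pan-leukocyte mean and -0.0601 for SELP and the endothelial mean. The cause of these changes was not tested. No paired analysis was possible because the diets were given to different cows and no label pairs them.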
